A study of Homo sapiens with 9 samples.

Results

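Common fragile sites are stretches of the genome that break when replication is slowed, and many of them lie inside the longest protein-coding genes. Such a gene is often copied late, and its transcription can outlast a cell cycle, so that polymerase and replication fork may meet inside it. DNA:RNA hybrids, in which a transcript pairs with its template and displaces the other DNA strand (an R-loop), are among the structures studied as a source of that breakage. RNase H, a nuclease that degrades the RNA strand of a hybrid, serves as the specificity control of hybrid mapping. Genes at fragile sites were compared here for the hybrid peaks called along them with and without that control and with and without a TDP-43 knockdown.

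The genes were the 9 named as FHIT, WWOX, MACROD2, IMMP2L, LRP1B, CNTNAP2, CSMD1, DLG2 and DMD, out of 19974 protein-coding genes on chromosomes 1 to 22 and X. The list names the genes and applies no measured value as a criterion, but it was drawn up with earlier results of these data known. Each gene was measured over its RefSeq GRCh38 span plus 1 kb on each side. The spans ran from 0.900 Mb for IMMP2L to 2.30 Mb for CNTNAP2 and came with their flanks to 16.2 Mb, which was 1.26% of the length of all coding spans together.

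The data were DRIP-seq peak lists from SH-SY5Y, an established human neuroblastoma line, in which hybrid-bearing DNA cut by 5 restriction enzymes was pulled down with the S9.6 antibody and sequenced. The control cells carried a stably integrated lentiviral control hairpin (shNC), and the knockdown cells a hairpin against TDP-43 (shTDP43), the RNA-binding protein encoded by TARDBP. The knockdown was constitutive, in cells selected with puromycin at 2 µg/mL, per the labels. Each genotype had 3 untreated libraries and 1 library of DNA exposed to RNase H for 6 h before the pull-down, so that a treated value has no replicate, and the labels do not tie replicates to separate transductions or cultures. What the p-values measure is the spread among these libraries, which may be technical.

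Untreated lists held 57204 to 73353 peaks over 91.6 to 142.0 Mb, and the treated lists 15504 peaks over 10.5 Mb in shNC and 8868 over 5.66 Mb in shTDP43. The background pileup, a relative depth solved from the lists, was 1.62 to 2.01 in the other untreated libraries, 1.05 in shTDP43 replicate 1 and 0.936 and 0.991 in the treated libraries. Of 7 adrenergic neuroblastoma marker genes 6 were covered in the untreated libraries and TH was at 0. The median covered share of those 7 spans was 90.5%, against 0.478% for 5 mesenchymal markers. FOSL1, 1 of these 5, was an exception with 50.3% of its span covered. Hybrid coverage is not a transcript level, so this describes the libraries and does not type the cells.

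The 9 genes were nearly free of hybrid peaks without RNase H. Peaks covered 0.0938% ± 0.0265 of the 9 spans in shNC and 0.0584% ± 0.0200 in shTDP43 (SD, n = 3 libraries each). Over all coding spans together the shares were 8.87% ± 0.56 and 7.86% ± 1.46 (SD, n = 3). The other 305 coding genes over 500 kb lay between, with 1.34% ± 0.12 and 0.919% ± 0.230 (SD, n = 3) of their joint span under peaks. Gene by gene the gap to those long genes was smaller: the median untreated share was 0.0276% in the fragile site genes, 0.157% in the other long genes and 5.61% in all coding genes. No untreated peak was called in 2 of the 9 genes, and none in 57 of the 305 other long genes, or 18.7%. Over all 19974 coding genes 5871 had none, or 29.4%, so the lack of any peak did not set the 9 genes apart.

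The order of the 9 genes by untreated share of span began with 2 genes of enzymes. IMMP2L, a subunit of the peptidase of the mitochondrial inner membrane, had 0.378% of its span under peaks, with a range of 0.232% to 0.678% over the 6 libraries. WWOX, an oxidoreductase with WW domains and a tumour suppressor, had 0.318%, ranging from 0.159% to 0.514%. CNTNAP2, a neurexin-family cell adhesion protein that clusters potassium channels along myelinated axons, had 0.167%, ranging from 0.0585% to 0.253%. Neighbours in that order overlapped in their ranges, and all 6 libraries had peaks in each of these genes.

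The remaining genes had a library without any peak. FHIT, a diadenosine polyphosphate hydrolase and tumour suppressor, had 0.0419% of its span covered and none in 2 of 6 libraries. LRP1B, an endocytic receptor of the low-density lipoprotein receptor family, had 0.0276% and was at 0 in 3 libraries. DMD, which encodes dystrophin, the link between the cytoskeleton and the membrane of muscle, had 0.00971% and was at 0 in 4. MACROD2, an enzyme that removes ADP-ribose from proteins, had 0.00901% and was at 0 in 3. DLG2, a scaffold protein of the postsynaptic density, and CSMD1, a transmembrane protein with complement-control domains, were at 0 in all 6. These 6 genes also overlapped in range.

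Set among the 305 other long genes, the same order ran from the bottom to past the middle. DLG2 and CSMD1 shared the lowest rank with the other genes without a peak, and 63 to 95 of the 305 genes had a smaller share than MACROD2, DMD, LRP1B or FHIT. CNTNAP2 stood above 158, WWOX above 187 and IMMP2L above 194 of them.

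**Figure D1:**
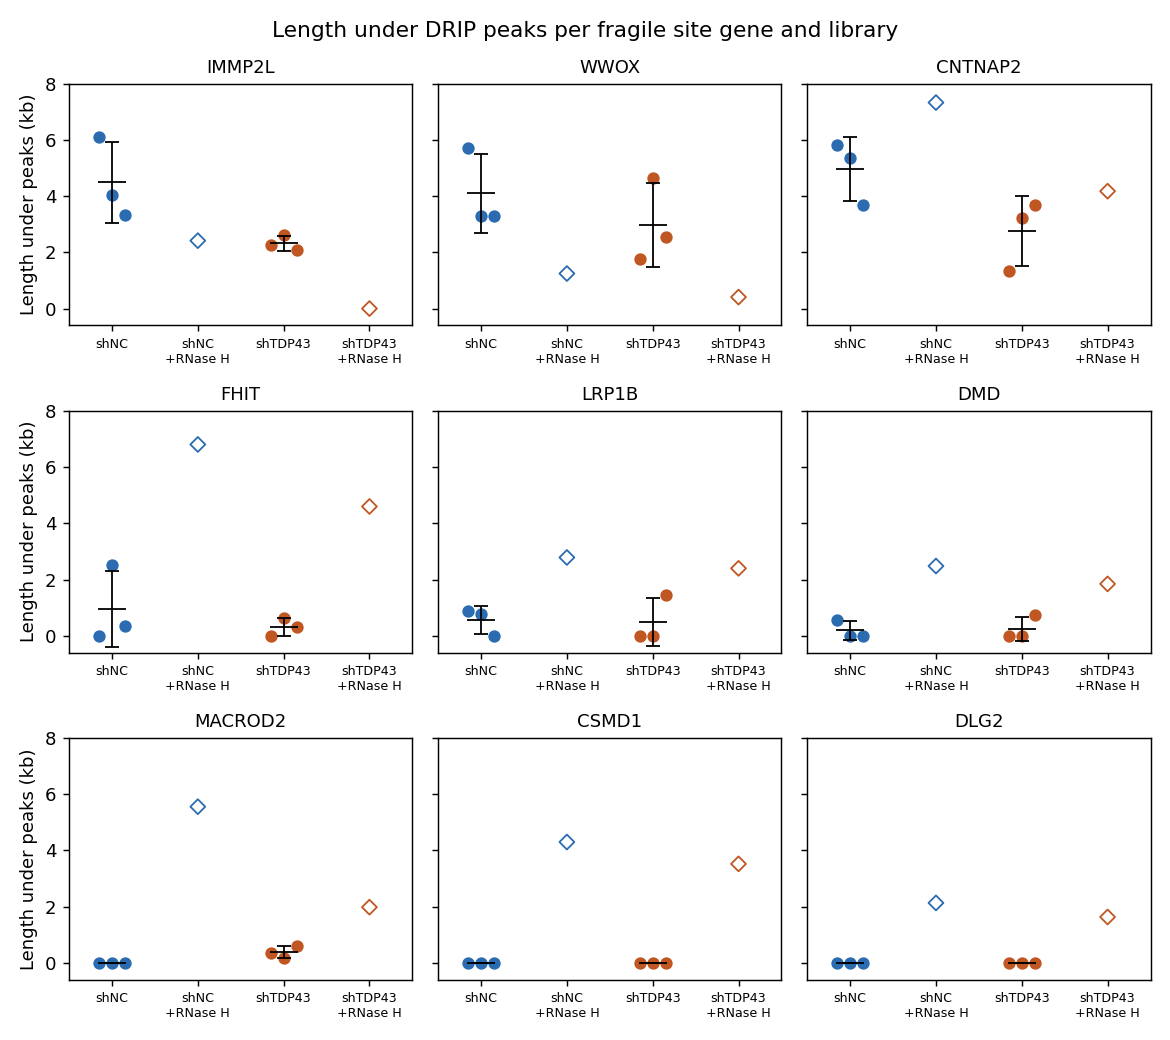
Length under peaks in kb (linear axis) in each library for the 9 genes; filled circles are untreated libraries, open diamonds the single RNase H library of each genotype, and bars the mean ± SD of 3 libraries. In 7 of 9 genes both diamonds lie above every circle of their genotype, and in IMMP2L and WWOX both lie below.

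In every untreated library, more of the length under peaks lay near gene starts or in a nested gene than elsewhere in the 9 genes. By number of peaks this did not hold in shNC replicate 2, with 10 against 11, or in shTDP43 replicate 3, with 5 against 10. Merging touching or overlapping peaks of all 8 libraries gave 87 regions in the 9 genes. Lengths given for regions count whole peaks, also any part past the 1 kb flanks, so they can exceed the lengths per gene. Of these, 14 lay within 15 kb of a RefSeq gene start or in LRRN3, a neuronal leucine-rich repeat gene nested inside IMMP2L, and 13 of the 14 were called in untreated libraries only. The 15 kb limit was set after the values were seen, and LRP1B and CSMD1 have no start in the promoter table used here. Replicates 1 to 3 of shNC had 16.3, 11.6 and 9.06 kb under peaks in these 14 regions, and those of shTDP43 4.02, 11.1 and 8.15 kb. After RNase H they held 1.11 kb in shNC and 0.474 kb in shTDP43, all of it in a single FHIT region that lay 13180 bp from an internal RefSeq start.

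The WWOX start carried the longest region of the list. It spanned chr16:78097707-78101190, 3484 bp across the annotated start, and was present in all 6 untreated libraries and in neither treated one. The covered length, in whole peaks that in part ran past the flank, was 3484, 3221 and 2576 bp in shNC and 1771, 3221 and 3484 bp in shTDP43. The shortest value came from shTDP43 replicate 1, the shallowest of the untreated libraries, where 8 and 12 reads were piled at the summits of 2 separate peaks against 22 to 32 reads in the other 5 libraries. The values of the genotypes overlapped. Downstream, within 11 kb, 4 smaller regions were called, each in 1 to 3 untreated libraries.

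At the CNTNAP2 start a region of 2573 bp, chr7:146115322-146117894, was called in 5 of 6 untreated libraries. It had the same ends in 4 of them, covered 1752 bp in shNC replicate 3 and was missing in shTDP43 replicate 1. The IMMP2L start had a region of 1658 bp, chr7:111561333-111562990, with the same ends in all 3 shNC libraries and in shTDP43 replicate 2. In shTDP43 replicates 1 and 3 it was broken into 2 peaks, 1277 and 1123 bp in all. Neither start had a peak after RNase H.

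LRRN3 held the highest summit pileup of the 9 spans in every untreated library, alone or tied. Its peak covered the same 970 bp, chr7:111091610-111092579, in all 6 untreated libraries. The summit pileup was 45, 64 and 37 reads in shNC and 12, 32 and 32 reads in shTDP43, over local backgrounds of 1.63 to 2.90 reads. The highest shTDP43 value was below the lowest shNC value, in lists of unequal depth, and no comparison of pileups was tested. No peak was called there after RNase H.

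**Figure D2:**
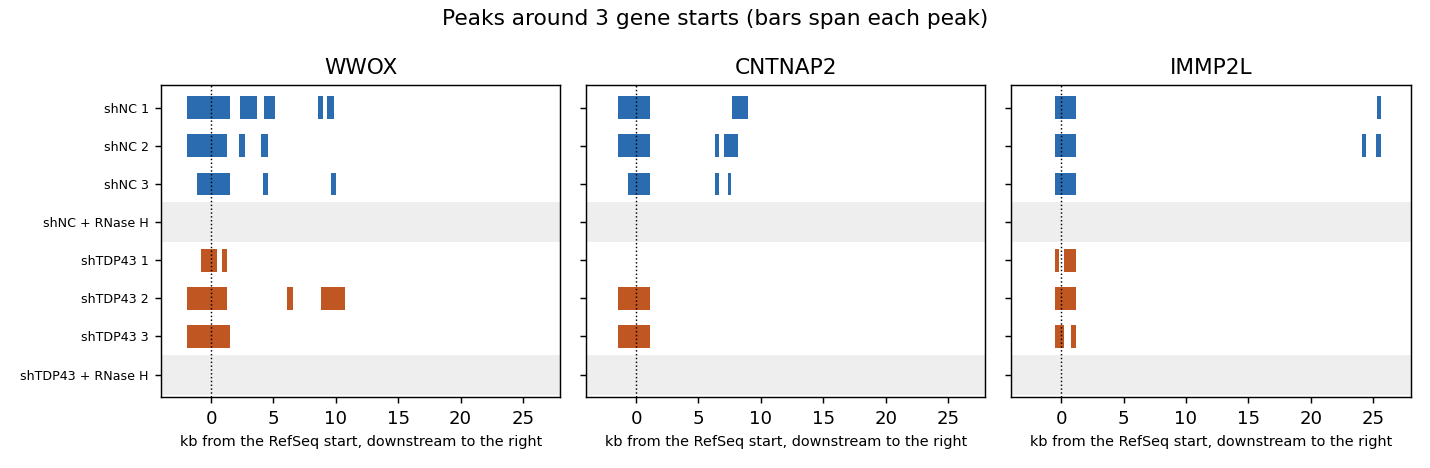
Peaks (bars, drawn to their length) from 4 kb upstream to 28 kb downstream of the RefSeq starts of WWOX, CNTNAP2 and IMMP2L, with 1 row per library and the RNase H rows shaded. The start peaks appear in 6, 5 and 6 of the 6 untreated libraries, and the shaded rows are empty.

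The promoter windows show what sequence lay under those peaks and what did not. RefSeq windows of 250 bases before to 50 bases after a start were matched for 7 of the 9 genes. They numbered 23, of which 9 were of DLG2 and 7 of DMD, none of them covered. Of the 23, 3 lay under a peak of any untreated library and 0 under a treated one. The 3 covered windows are printed with 2 uncovered ones, MACROD2 for its high and DMD for its low GC content, from RefSeq GRCh38.p14. Each is the gene's outermost start, read 5′ to 3′ on the gene's strand, and capitals mark every run of 4 or more G.
WWOX, chr16:78099404-78099703, plus strand, under a peak in 6 of 6 untreated libraries: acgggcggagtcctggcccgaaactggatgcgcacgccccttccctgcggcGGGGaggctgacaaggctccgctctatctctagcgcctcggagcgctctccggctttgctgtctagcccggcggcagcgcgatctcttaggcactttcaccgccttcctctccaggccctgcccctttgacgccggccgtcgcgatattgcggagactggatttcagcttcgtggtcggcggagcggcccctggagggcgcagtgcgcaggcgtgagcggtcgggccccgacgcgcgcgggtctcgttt
IMMP2L, chr7:111562443-111562742, minus strand, under a peak in 6 of 6: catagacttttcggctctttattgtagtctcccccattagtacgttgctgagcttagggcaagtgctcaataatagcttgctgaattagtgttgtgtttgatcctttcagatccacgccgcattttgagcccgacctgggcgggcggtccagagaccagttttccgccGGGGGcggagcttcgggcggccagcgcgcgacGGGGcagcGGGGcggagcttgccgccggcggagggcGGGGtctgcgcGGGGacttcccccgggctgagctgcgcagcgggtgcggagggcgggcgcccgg
CNTNAP2, chr7:146116551-146116850, plus strand, under a peak in 5 of 6: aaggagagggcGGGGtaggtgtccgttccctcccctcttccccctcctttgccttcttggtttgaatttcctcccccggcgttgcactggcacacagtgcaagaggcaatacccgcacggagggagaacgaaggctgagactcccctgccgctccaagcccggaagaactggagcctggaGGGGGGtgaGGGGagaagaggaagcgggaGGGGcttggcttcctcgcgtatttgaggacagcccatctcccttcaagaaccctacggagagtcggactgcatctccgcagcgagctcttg
MACROD2, chr20:13995266-13995565, plus strand, under a peak in 0 of 6: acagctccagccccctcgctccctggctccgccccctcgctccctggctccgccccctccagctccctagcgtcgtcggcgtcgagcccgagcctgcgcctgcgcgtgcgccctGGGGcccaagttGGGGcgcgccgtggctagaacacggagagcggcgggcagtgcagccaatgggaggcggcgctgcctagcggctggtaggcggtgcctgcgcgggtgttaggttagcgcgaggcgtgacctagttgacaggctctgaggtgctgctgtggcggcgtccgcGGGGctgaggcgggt
DMD, chrX:33339339-33339638, minus strand, under a peak in 0 of 6: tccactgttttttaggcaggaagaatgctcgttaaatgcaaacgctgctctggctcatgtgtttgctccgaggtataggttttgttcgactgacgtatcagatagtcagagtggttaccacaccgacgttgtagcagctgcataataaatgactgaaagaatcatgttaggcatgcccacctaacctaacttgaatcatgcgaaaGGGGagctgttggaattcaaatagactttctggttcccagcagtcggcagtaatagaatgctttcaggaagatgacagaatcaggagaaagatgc

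GC content alone did not separate the covered from the uncovered windows. The covered windows were 69.0% GC with 38 CpG in WWOX, 65.0% with 31 CpG in IMMP2L and 61.7% with 16 CpG in CNTNAP2. The uncovered MACROD2 window was the richest of the 5 at 73.3% GC with 34 CpG. The outermost DLG2 and FHIT windows, at 61.0% and 55.0% GC, were uncovered as well, and DMD had 44.3% GC and 9 CpG. Runs of at least 4 G on the gene's strand (GGGG, overlapping matches joined) numbered 5 in IMMP2L, 4 in CNTNAP2, 3 in MACROD2 and 1 each in WWOX and DMD. The same motif was found in 81.1% of 21983 coding promoter windows, and its reverse-strand form CCCC in 78.8%.

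Peaks at promoters are frequent elsewhere in these libraries. Of all coding windows 37.7% lay under peaks in all 6 untreated libraries, and 15.3% of the 590 windows of the other long genes did. Among the member windows, those of WWOX and IMMP2L did. Windows without a peak in any untreated library were 43.3% of all coding windows and 70.7% of those of the other long genes. Of the 23 member windows 3 had such a peak. By GC content the share of coding windows under peaks in all 6 libraries rose from 7.44% below 50% GC. It went through 28.4% and 47.2% to 56.8% of windows at 70% GC or more. In the last class, that of the MACROD2 window, 20.5% of windows had no untreated peak. The 2 miRNA hairpins annotated inside these genes, MIR7157 in LRP1B and MIR3915 in DMD, lay under no peak of any library.

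After RNase H the 9 genes held more peaks, although the treated lists as wholes were short. The untreated shNC libraries had 19, 21 and 13 peaks in the 9 genes and the treated shNC library 62. The untreated shTDP43 libraries had 9, 11 and 15 peaks and the treated one 34. Treated peaks covered 0.216% of the 9 spans in shNC and 0.127% in shTDP43. Over all coding spans the covered share went the other way, from 8.87% to 0.515% in shNC and from 7.86% to 0.258% in shTDP43. The other long genes went from 1.34% to 0.253% and from 0.919% to 0.152%. Treated, the fragile site genes thus lay close to the other long genes, with a median share per gene of 0.209% against 0.205% in shNC and 0.0962% against 0.118% in shTDP43.

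The treated library was covered over more than each of its 3 untreated libraries in 7 of 9 genes in shNC and in 7 of 9 in shTDP43. These were FHIT, MACROD2, LRP1B, CNTNAP2, CSMD1, DLG2 and DMD in both genotypes. The same held for 4.08% of all coding genes and 40.0% of the other long genes in shNC, and for 2.95% and 35.1% in shTDP43. With 1 treated library per genotype this was not tested. The count depended on which peaks were kept. Peaks with a −log10 q of at least 10 gave 3 genes in shNC and 4 in shTDP43. That setting gave 70 and 56 of the 305 other long genes, and 1.84% and 1.30% of all coding genes. The 8868 strongest peaks of every list gave 9 and 8, beside 177 and 179 of the 305. They also gave 6.79% and 7.03% of all coding genes.

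At 8868 peaks per list the untreated libraries had 1, 1 and 1 peaks in shNC and 0, 1 and 0 in shTDP43, in the 9 genes, each of them the LRRN3 peak. The treated libraries had 37 and 34. The weakest peak kept had a −log10 q of 13.7 to 28.7 in the untreated lists, 4.11 in the treated shNC list and 1.31 in the treated shTDP43 list, so an equal number of peaks is not an equal strength. The lowest pileup that was called in the 9 genes was 6 reads in treated shNC, 7 in treated shTDP43 and 6 to 9 in the untreated libraries, whose background was mostly higher. The input library was not analysed here, and copy number was not measured.

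**Figure D3:**
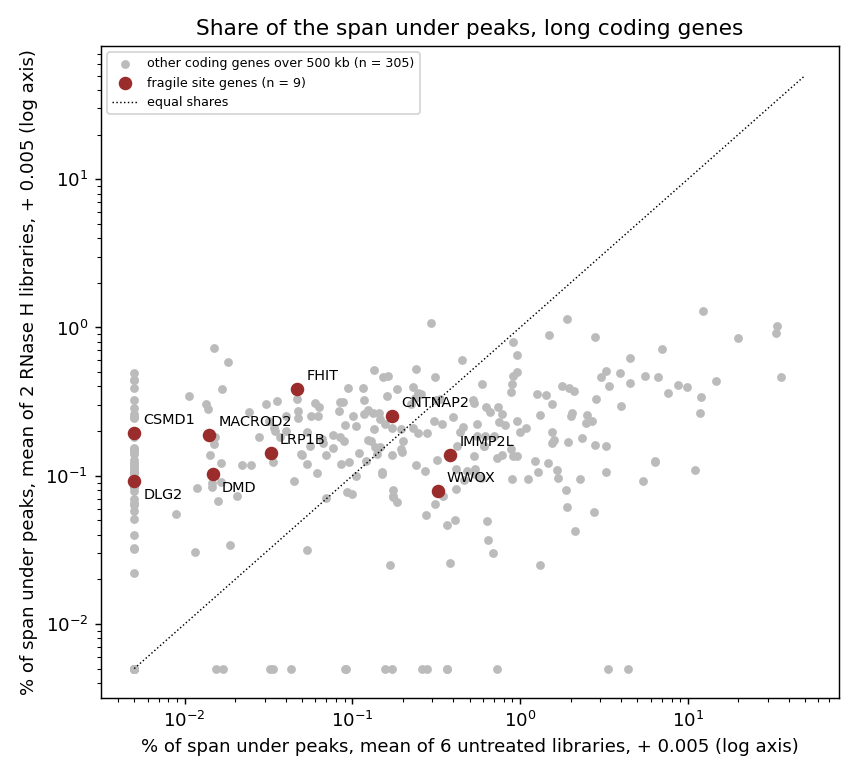
Percent of the span under peaks, mean of 6 untreated libraries (x) against mean of the 2 RNase H libraries (y), both with 0.005 added and on log axes; red points are the 9 fragile site genes, grey points the 305 other coding genes over 500 kb, and the dotted line marks equal shares. IMMP2L and WWOX lie below the line and the other 7 above it, among many grey points.

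Most treated peaks lay inside the genes, away from the starts. In the 73 regions outside the start class the untreated libraries covered 4.29, 5.85 and 1.66 kb in shNC and 1.71, 1.75 and 4.71 kb in shTDP43. The treated libraries covered 33.9 and 20.1 kb. Of these 73 regions 57 were called after RNase H only, 12 in treated and untreated libraries, and 4 in untreated libraries only. Over all 87 regions 66.7% were treated only, against 14.9% of 5105 regions in the other long genes and 7.81% of 107506 regions in all.

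The treated peaks in the 9 genes were much like the rest of their lists in width and strength. Their median width was 467.5 bp in shNC, against 458 bp in the whole list, and 518.5 bp in shTDP43, against 437 bp. The median summit pileup was 11 and 10.5 reads. The median fold over background, the authors' value, equalled that of the whole list in each treated library, 5.17 in shNC and 5.02 in shTDP43. These are the folds of 9 reads over backgrounds of 0.936 and 0.991. Both values recur among the peaks, so equal medians can be ties. Many of the treated peaks in the 9 genes overlapped between the 2 treated libraries. Of the 34 shTDP43 peaks 26 overlapped a treated shNC peak, or 76.5%, against 67.9% of that whole list. In the other direction it was 26 of 62, or 41.9%, against 36.1%. By contrast, 12 of 62 treated shNC peaks overlapped an untreated peak of any library, or 19.4% against 55.5% of that whole list, and 12 of 34 in shTDP43, or 35.3% against 55.4%.

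CNTNAP2 had the strongest of the treated sites by fold over background within each treated list. Its covered length was 5.83, 5.37 and 3.68 kb in shNC, 1.35, 3.23 and 3.70 kb in shTDP43, and 7.33 and 4.18 kb after RNase H. The treated libraries called 15 and 8 peaks in it, against 3 to 6 in the untreated ones. Close to its 3′ end, at chr7:148406623-148407279, all 8 libraries had a peak, with the same ends in 6 of them. The summit pileup there was 21, 27 and 21 reads in shNC, 8, 27 and 23 reads in shTDP43, and 34 and 35 reads after RNase H. In fold over background the treated peaks stood above 96.4% and 96.9% of their lists, and the untreated ones above 16.7% to 85.0% of theirs.

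A CNTNAP2 site of 695 bp, chr7:147418157-147418851, was called in 7 of 8 libraries, all but shTDP43 replicate 2. Its summit held 42 reads over a background of 0.947 in treated shNC, above 98.3% of that list, and 22 reads in treated shTDP43. In the untreated libraries with a peak it held 7 to 14 reads. The CNTNAP2 site chr7:146632690-146633163 was called in all 8 libraries, with 30 and 15 reads after RNase H and 9 to 21 without. The site chr7:148111316-148112198 was called in both treated libraries, with 35 and 32 reads, and in 0 untreated ones.

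FHIT had the longest region outside the start class. Its covered length was 0, 2.50 and 0.348 kb in shNC, 0, 0.620 and 0.319 kb in shTDP43, and 6.80 and 4.60 kb after RNase H. Both treated values were above every untreated one. The treated libraries covered 1563 and 1425 bp of chr3:59949155-59950717, where shNC replicate 2 alone of the untreated libraries had a peak, of 864 bp. The region chr3:60094089-60095199, at 13180 bp from an internal RefSeq start, was covered over 1111 and 474 bp after RNase H and over 0 without. The site chr3:60942710-60943141 was called in 6 libraries, with 17 and 19 reads after RNase H and 6 to 11 without. Of 10 FHIT regions, 6 were called in both treated libraries.

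LRP1B was covered over 0.894, 0.791 and 0 kb in shNC, 0, 0 and 1.47 kb in shTDP43, and 2.78 and 2.397 kb after RNase H. The treated values were again above all untreated ones. Its 3 sites called with and without RNase H included chr2:140917497-140918082, with 21 and 20 reads in the treated libraries and 9 to 16 in the 3 untreated ones that had it. At chr2:141278028-141278700 the same 673 bp were called in both treated libraries and in shTDP43 replicate 3, with 26, 9 and 10 reads. All 3 shTDP43 peaks in LRP1B were in that replicate.

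MACROD2 was covered over 0 kb in all 3 shNC libraries, over 0.360, 0.164 and 0.590 kb in shTDP43, and over 5.56 and 1.98 kb after RNase H. The shTDP43 values lay above the shNC values without overlap. Among the tested coding genes, a set without MACROD2, 0.796% had this pattern. MACROD2 itself was too little covered to be tested. Its longest region, chr20:15503226-15504486, was covered over the whole 1261 bp in both treated libraries, over 360 and 297 bp in shTDP43 replicates 1 and 3, and in no other library. The peak of shTDP43 replicate 2 lay upstream of the MACROD2 start, inside the neighbouring gene SEL1L2, and 0.164 kb of it counted through the flank. That library had no other MACROD2 peak, so the lack of overlap between the genotypes rested on this flank piece. FLRT3, a cell adhesion gene nested in MACROD2, had no peak in any library.

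DMD was covered over 0.565, 0 and 0 kb in shNC, 0, 0 and 0.729 kb in shTDP43, and 2.48 and 1.84 kb after RNase H. Its longest region, chrX:31333594-31334708, was called in the treated libraries only, over 1112 and 1115 bp, with 18 and 19 reads. The region chrX:32944392-32945120 was also called in shNC replicate 1 and shTDP43 replicate 3. Each untreated DMD peak lay in that region.

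CSMD1 and DLG2 had peaks after RNase H only. CSMD1 was covered over 4.30 and 3.52 kb by 7 and 5 treated peaks. Of these, 3 in each library made up a cluster of neighbouring regions, chr8:4076485-4079996, with 8 to 13 reads at a summit. DLG2 was covered over 2.13 and 1.63 kb by 4 and 3 peaks, and 1 of its 6 regions, chr11:85008685-85009414, was called in both treated libraries, with 12 and 7 reads.

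WWOX and IMMP2L went the other way. WWOX was covered over 5.73, 3.29 and 3.28 kb in shNC and 1.77, 4.65 and 2.54 kb in shTDP43, against 1.25 and 0.409 kb after RNase H. IMMP2L was covered over 6.12, 4.03 and 3.32 kb in shNC and 2.25, 2.63 and 2.09 kb in shTDP43, against 2.42 and 0 kb after RNase H. In both genes every treated value was below every untreated value of its genotype. None of their treated peaks overlapped an untreated one: the 4 treated WWOX regions and the 5 treated IMMP2L regions were all called after RNase H only.

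**Figure D4:**
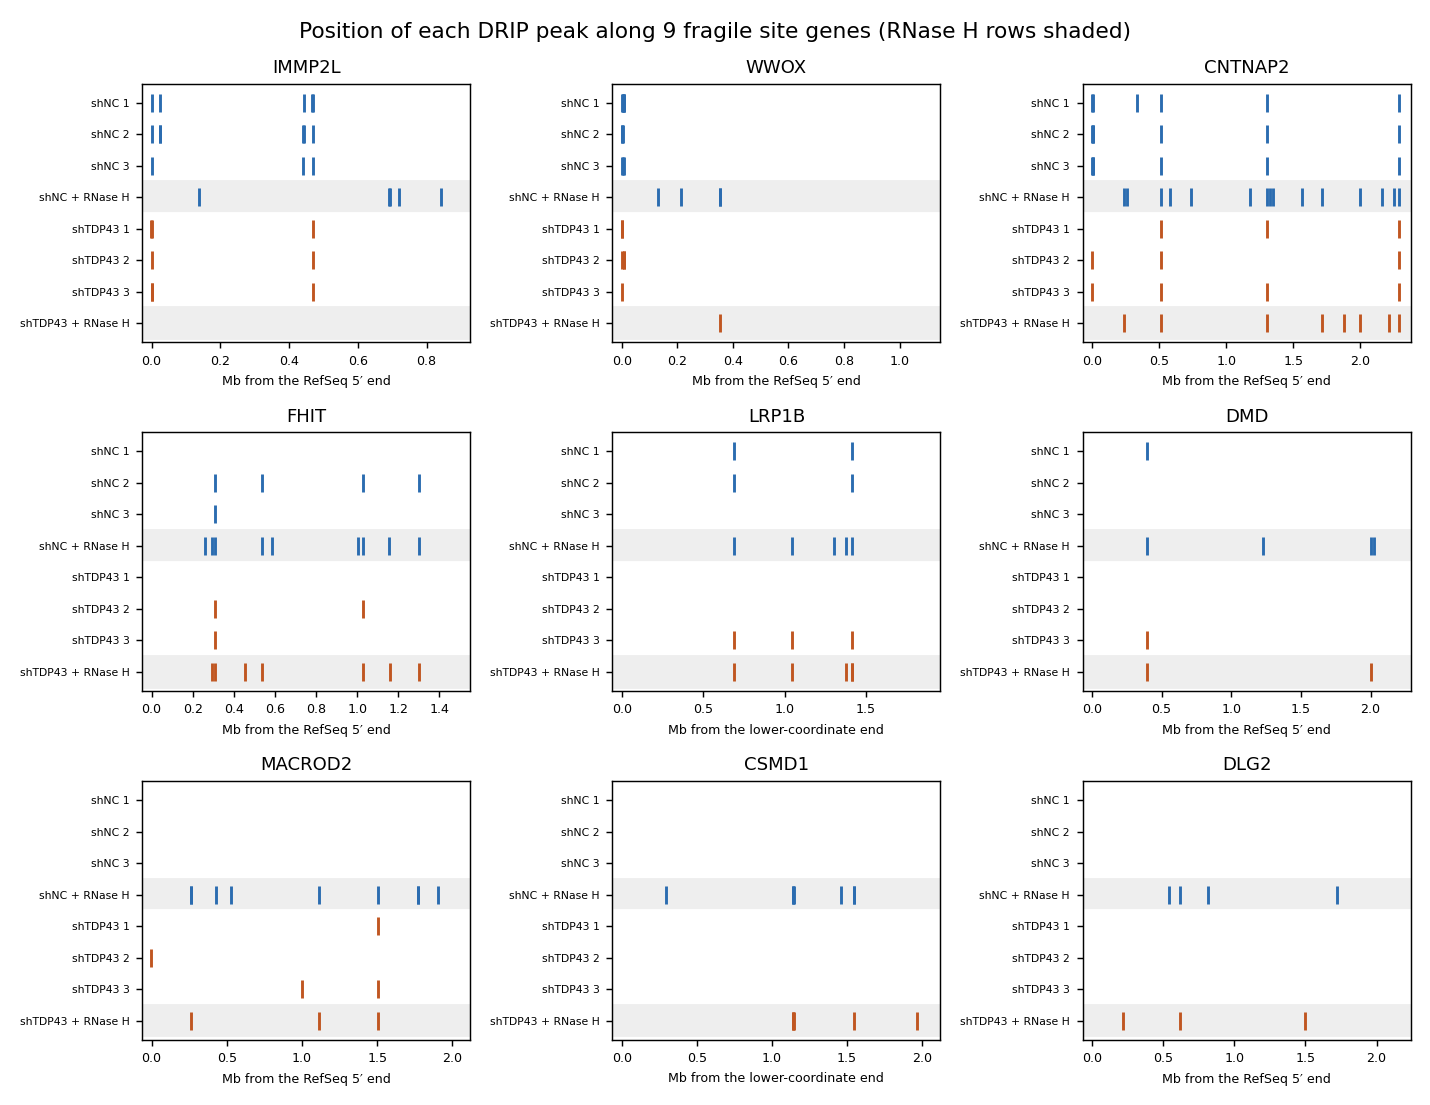
Each peak as a tick along the 9 genes (x, Mb from the RefSeq 5′ end, or from the lower-coordinate end for LRP1B and CSMD1), with 1 row per library and the RNase H rows shaded. Untreated ticks of WWOX and of part of IMMP2L and CNTNAP2 gather at the 5′ end, while treated ticks are spread along the spans and recur between the 2 shaded rows at several sites.

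Ends of peaks often coincided between libraries. Of 37 member regions called in at least 2 libraries, 14 had the same first and last base in at least 2 of them, or 37.8%, against 21.0% of such regions in all. The DNA had been cut by restriction enzymes before the pull-down. The cut sites were not placed, and their part in these ends was not tested.

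None of the 5 fragile site genes that could be tested was called changed with TDP-43 knockdown in the test across all coding genes. A missing call does not show that a gene was unchanged. Covered length was scaled to the median library total, 100 bp was added, and log2 values were fitted with limma for the 12810 genes whose mean over the 6 untreated libraries reached 500 bp. Of the 9 genes 5 passed that filter, 0 were called lower and 0 higher at an adjusted p under 0.05. Over all tested genes 0.749% were called lower and 0.172% higher, and over the 192 tested other long genes 6.77% and 0.521%. At an unadjusted limma p under 0.05 there were 2 of the 5 genes, 60 of the 192 other long genes and 1474 of all 12810.

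All 5 tested genes had negative log2 changes, of which those of FHIT and LRP1B turned to 0.61 and 0.52 under cyclic loess scaling. The median was −0.69, beside 0.05 over all tested genes and −0.22 over the other long genes, of which 137 of 192 were negative. Without shTDP43 replicate 1 the median of the fragile site genes was −0.17. Without scaling, the median over all tested genes moved from 0.05 to −0.15, and that of the 5 genes from −0.69 to −0.83. IMMP2L, CNTNAP2 and WWOX were called in none of the 21 alternatives, and FHIT and LRP1B in none of those in which they passed the filter.

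CNTNAP2 and IMMP2L came nearest to a call. IMMP2L averaged 4.49 ± 1.45 kb (SD) over the 3 shNC libraries and 2.32 ± 0.28 kb (SD) over the 3 of shTDP43, and every shTDP43 library was below every shNC library, as in 14.0% of all tested genes. Its log2 change was −0.69 ± 0.24 (SE), with an adjusted p of 0.311 (limma). Part of that difference lay in LRRN3, at 2.48 ± 1.44 kb (SD, n = 3) in shNC and 0.970 kb in each shTDP43 library (log2 change −0.96 ± 0.39 SE, limma adjusted p = 0.396). Without bases that belong to another coding gene the IMMP2L change was −0.35 (adjusted p = 0.640). CNTNAP2 averaged 4.96 ± 1.13 kb (SD) in shNC against 2.76 ± 1.24 kb (SD) in shTDP43, n = 3 each, with the ranges overlapping at 3.68 and 3.70 kb. Its log2 change was −0.73 ± 0.27 (SE), with an adjusted p of 0.346 (limma).

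The other genes varied more between libraries than between genotypes. WWOX averaged 4.10 ± 1.41 kb and 2.99 ± 1.49 kb (SD, n = 3; log2 change −0.32 ± 0.30 SE, limma adjusted p = 0.639). FHIT had a log2 change of −0.66 ± 1.51 (SE, limma adjusted p = 0.833) and LRP1B −0.80 ± 1.69 (SE, limma adjusted p = 0.820), with standard errors larger than the changes. Each untreated peak of FHIT and LRP1B lay in a region also called after RNase H. With peaks also called after RNase H left out, FHIT and LRP1B fell below the filter. The changes were then −0.47 in WWOX, −0.85 in IMMP2L and −2.19 in CNTNAP2 (limma adjusted p = 0.397, 0.0801 and 0.305). In FHIT the sign depended on the setting: without shTDP43 replicate 1 the change was 0.16.

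MACROD2, DMD, DLG2 and CSMD1 were below the filter. MACROD2 had 0 peaks in each shNC library and 1, 1 and 2 peaks in the shTDP43 libraries, of which that of replicate 2 was the SEL1L2 peak. It thus came into a fit only through the group with peaks, and no fold or p is given for it. DLG2 and CSMD1 had no untreated peak to compare, and DMD had 1 in each genotype.

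**Figure D5:**
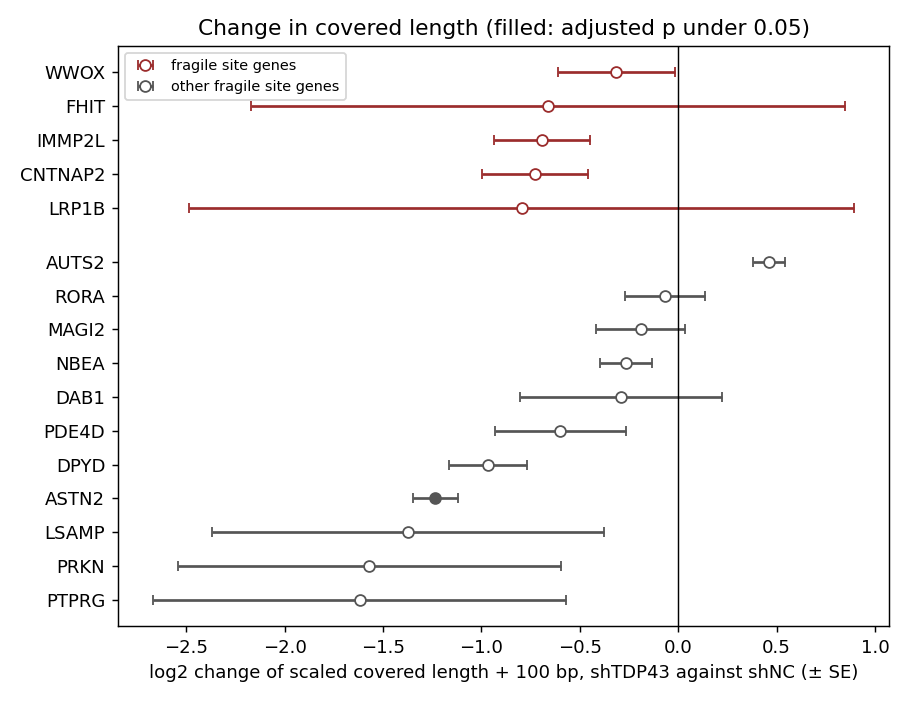
Change in covered length with TDP-43 knockdown (x, log2 of scaled covered length + 100 bp, shTDP43 against shNC; bars are ± SE from limma over 3 libraries per genotype) for the 5 tested fragile site genes (red) and the 11 tested genes of a list of other fragile site genes (grey). Only the point of ASTN2 is filled, which marks an adjusted p under 0.05.

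Merged over the 6 untreated libraries alone, the 9 genes had 29 regions, of which 5 were present in all 6 libraries, or 17.2%. That share was 13.9% of 4372 regions in the other long genes and 24.2% of 99429 regions in all. In 3 regions, or 10.3%, all 3 shNC libraries and 0 of 3 shTDP43 libraries had a peak, against 2.63% of regions in the other long genes and 1.27% in all. These were chr16:78103666-78104751 in WWOX, chr7:146123816-146125738 in CNTNAP2, both 4 to 9 kb downstream of the start, and chr7:111119070-111121690 in LRRN3. The reverse pattern had 0 regions. When presence required overlap with 50% of the region, or peaks a −log10 q of at least 5, the 3 went to 0, so the pattern rested on short or weak peaks.

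A list of 15 further genes at or near fragile sites, chosen with earlier results known, was read beside the 9. Of these 11 were tested, 1 was called lower and 0 higher, and 10 of 11 changes were negative with a median of −0.60. Among the 192 tested other long genes, 6.77% were called lower and 137 were negative. The called gene was ASTN2, a neuronal membrane protein that takes part in receptor trafficking, at 40.2 ± 4.17 kb in shNC against 15.0 ± 3.12 kb after knockdown (SD, n = 3 libraries each). Its log2 change was −1.23 ± 0.11 (SE), with a limma adjusted p of 0.00405. ASTN2 was not called without scaling (log2 change −1.43, limma adjusted p = 0.132) or with numbers of peaks (−1.62, 0.0633). It was not called either with only the peaks that reached a −log10 q of 5 (−0.93, limma adjusted p = 0.0882) or of 10 (−0.95, 0.543). The next smallest p-values were those of AUTS2 (log2 change 0.46, limma adjusted p = 0.0512) and DPYD (log2 change −0.97, limma adjusted p = 0.0779), which were called in 6 and 2 of the 21 alternatives, AUTS2 among others without shTDP43 replicate 1 (limma adjusted p = 0.0469). The treated library exceeded every untreated one in 5 of the 15 in shNC and 6 in shTDP43. The same held for 40.0% and 35.1% of the other long genes, and for 4.08% and 2.95% of all coding genes.

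Genes whose products protect fragile sites did not pass the test. The list held 22 genes of the replication checkpoint, helicases, nucleases and repair, of which 22 were tested, 0 called and 13 positive, or 4 positive without scaling, with a median log2 change of 0.04. The smallest p-values were those of ATR, the checkpoint kinase (−0.53 ± 0.15 SE, limma adjusted p = 0.185), and RTEL1, a helicase (0.23 ± 0.09 SE, limma adjusted p = 0.342). At an unadjusted p under 0.05 there were 2 of 22, beside 1474 of all 12810 tested genes. Of those 12810 genes 7232 had positive changes, or 2145 without scaling.

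By pattern over the 6 untreated libraries, genes were paired with the most like of 1387 other coding genes over 200 kb, by Euclidean distance on the log2 scale. CNTNAP2 was nearest to MAP7 at a distance of 0.38, DMD to AMMECR1 at 0.50, WWOX to NEBL at 0.61 and IMMP2L to SCAPER at 0.65. FHIT was nearest to HS3ST4 at 0.84 and MACROD2 to TNIK at 1.44. DLG2 and CSMD1 shared their pattern of 0 in all 6 libraries with 305 of the candidates. With 6 libraries that differ in depth, a small distance describes these values only.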

How the data were processed

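DRIP-seq peak lists of 8 libraries were used (3 untreated and 1 RNase H-treated per genotype); 1 input sample was not analysed here. Tools in the submitters' processing notes are MACS2 2.2.6, Bowtie2 2.4.4 and SAMtools, with the hg38 build. The control for peak calling, if any, is not stated in those sources. The deposited lists were made per library, and hold for each peak a fold enrichment ratio, −log10 p and −log10 q values and a score, as the authors' peak caller wrote them. No read counts are in the lists used. Pileup and background at a summit were solved from fold and p, to within 0.001.

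Each gene got, per library, the number of bases under peaks in the RefSeq GRCh38.p14 span plus 1 kb each side. This length was scaled, log2-transformed with 100 bp added and fitted in R 4.3.3 by limma 3.58.1 (trended eBayes, Benjamini-Hochberg). Other values were computed in Python 3.11.15. Levels in kb are unscaled. The members and gene lists were chosen with earlier results of these data known. All 9 members were named. A result of the pattern comparison is not reported here. In the other lists each called gene was named, or else the 2 with the smallest p. Interval sums matched a brute-force count in 500 of 500 windows. No genome came with the files, so shares are of the joint coding span of 1291 Mb, in place of the planned share of chromosomes.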

Additional observations from a re-analysis of the deposited data

How the results depend on the processing

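Under the 21 alternatives 0 of the fragile site genes that passed the filter were called lower. With numbers of peaks 1, MACROD2, passed the threshold as higher, against 0 peaks in every shNC library, which supports no call. The median log2 change over 5 genes was −0.31 with cyclic loess and −0.38 with 1000 bp added. Over the 3 genes left with −log10 q at 10 or above it was −1.54, and over the 3 to 5 genes left when 1 library was left out −0.84 to −0.17. FHIT turned to 0.61 and LRP1B to 0.52 with cyclic loess. With 1 library left out FHIT ran from −1.81 to 0.16, the latter without shTDP43 replicate 1.

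Over all coding genes the test gave 96 lower and 22 higher. It gave 19 and 1 without scaling, 160 and 36 with 500 bp added, 191 and 40 with 1000 bp, 30 and 3 with −log10 q at 5 or above, 30 and 2 at 10, 61 and 14 without the trend, and 669 and 1070 without peaks also called after RNase H. Equal peak numbers gave 44 higher and numbers of peaks 5. Leaving out 1 library gave 12 to 166 lower and 6 to 57 higher. With the replicate block 65 were lower and 9 higher, and no call among the 9 genes changed. Same-numbered libraries deviated with correlations of −0.17, 0.06 and −0.17, and no library correlated best with its own number. These deviations were taken from means of 3 libraries, so they cannot show whether same-numbered libraries shared a preparation.

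The 3 regions of shNC alone went to 0 with overlap of 50% of the region, and also when −log10 q had to reach 5. Genes covered further after RNase H were 4 of the 9 in shTDP43 at that limit. The share there was 29.2% of the other long genes and 2.02% of all coding genes. At 10 the counts were 3 in shNC and 4 in shTDP43. The treated shNC share of the 9 spans was 0.153% with equal peak numbers in all 8 lists. The alternatives on treated libraries were chosen after seeing the data. Of all values recomputed, 297 kept direction and call or size, 38 moved, 8 gained and 4 lost a call, and 3 reversed. Depth was lowest in the treated libraries and in shTDP43 replicate 1, and a span without a peak is a caller's result at that depth.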
